A study of Mus musculus with 6 samples.

Results

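Splicing factor and spliceosome protein genes were measured in primary mouse keratinocytes with and without an active NFATc1. The set held 74 genes, read from 98 array rows, out of 19935 genes and 21780 rows with 1 gene symbol. The genes were chosen by symbol: the serine and arginine rich splicing factors (Srsf, 10 genes), the heterogeneous nuclear ribonucleoproteins (Hnrnp, 17), the LSm proteins (Lsm, 13), the Sm and other small nuclear ribonucleoproteins (Snrp, 10, Snrpn left out), the U2 snRNP subunits SF3a and SF3b (Sf3, 9), the Prp factors (Prpf, 12) and the U2AF factors (U2af, 3). The set itself was picked out by the contrast between caNFATc1 and vector control cells, so its counts and medians in that contrast are descriptions and not tests. Rows that carry several symbols were left out, and with them Hnrnpa1, Hnrnpa3, Hnrnph3 and Snrpf.

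The cells were wild-type keratinocytes of CD1 mice, grown with little calcium in the medium, and all were infected with a retrovirus. In 3 cultures (caNFATc1) the virus carried human NFATc1 with an altered autoinhibitory domain, which makes the factor active at all times. The other 3 cultures (vector control) received virus made from MSCV without an insert. The labels state neither the age of the mice nor the share of infected cells. Total RNA went onto 6 single-colour arrays, 1 per culture, and the replicate numbers 1 to 3 occur in both groups. The comparison addresses what changes in keratinocytes when NFATc1 is active.

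In the nucleus, introns are removed by the spliceosome, which is built from small nuclear RNAs wrapped in proteins. Sm proteins form a ring around the U1, U2, U4 and U5 RNAs, and LSm proteins form a similar ring on the U6 RNA. U2AF and the U2 proteins SF3a and SF3b recognise the branch point and the 3′ splice site, Prp factors carry the U4/U6.U5 particle and the catalytic steps, and SR proteins and hnRNPs bind exons and introns and favour or repress the use of nearby sites. NFATc1 is a transcription factor that calcineurin activates when calcium rises, and in skin it is known for keeping hair follicle stem cells at rest.

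In the deposited log2 values each row has a median of 0 over the 6 arrays, so they show differences between arrays and no level. Whether keratinocyte markers were high could not be read from them. With 6 arrays and a median of 0, the middle 2 arrays of a row lie equally far above and below 0. Differences below are caNFATc1 minus vector control within same-numbered arrays (a pair), averaged over the 3 pairs, with the standard error (SE) of the limma fit that has the replicate number as a block. A gene was called where that fit's Benjamini-Hochberg adjusted p over all genes was under 0.05. Rcan1, a known NFAT target, was 3.38 ± 0.10 higher in caNFATc1 cells (SE, n = 3 pairs, limma adjusted p = 6.8e-04), while the row of mouse Nfatc1 differed by 0.04 ± 0.07; the transgene is human. Replicate 1 stood apart in both groups: Xist, which coats the silenced X chromosome, read lower there by at least 5.97 than on any of the other 4 arrays. The Y chromosome gene Eif2s3y read 3.00 (vector control) and 3.77 (caNFATc1) in replicate 1. On the other 4 arrays it lay between -0.08 and 0.01. The first counts are given with and without replicate 1.

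Most splicing factor genes were slightly lower in caNFATc1 cells. Of the 74 members, 63 had a negative difference and 11 a positive one. The median was -0.19 (-0.15, -0.17 and -0.15 in pairs 1, 2 and 3). Over all genes it was -0.01 (-0.06, 0.02 and 0.01), so pair 1 was lower over all genes too. With the replicate block 10 members (13.5%) were called lower, beside 2.38% of all genes. None was called higher, beside 3.73% of all genes, and at an unadjusted p under 0.05 there were 0 members higher and 32 lower, beside 11.7% and 9.78% of all genes. Without replicate 1, 65 members were negative and 4 were called lower. The share of all genes called was not computed for runs that leave out a replicate. The genes called lower were Lsm2, Lsm3, Lsm4, Lsm5, Lsm6, Lsm7, Snrpa1, Snrpd3, Srsf2 and Srsf3. Their differences were small, from -0.53 (1.44-fold lower) for Lsm2 to -0.33 (1.25-fold lower) for Lsm7. Because the contrast chose the set, nothing is read from these shares.

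All 10 calls depended on the pairing. Without the block limma called 0 members, beside 0.216% of all genes, and 24 members had an unadjusted p under 0.05, beside 12.7% of all genes. Leaving out a pair also took away most calls. Without replicate 1 the calls were Lsm2, Lsm5, Lsm6 and Srsf3 (4), without replicate 2 only Lsm2 (1), and without replicate 3 Lsm2, Lsm3 and Lsm6 (3). Lsm2 was called in every alternative run with the block, at adjusted p values from 0.0192 to 0.0444, and not without it (0.0836). Counts that use no model gave 50 members (67.6%) lower in all 3 pairs, beside 21.3% of all genes. For 27 members (36.5%) all caNFATc1 arrays lay below all vector control arrays, beside 9.09% of all genes. For 0 members did they all lie above, beside 9.64% of all genes. Lsm1, Lsm10 and Prpf40b (3 members) were higher in all 3 pairs, beside 21.6% of all genes.

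**Figure D1:**
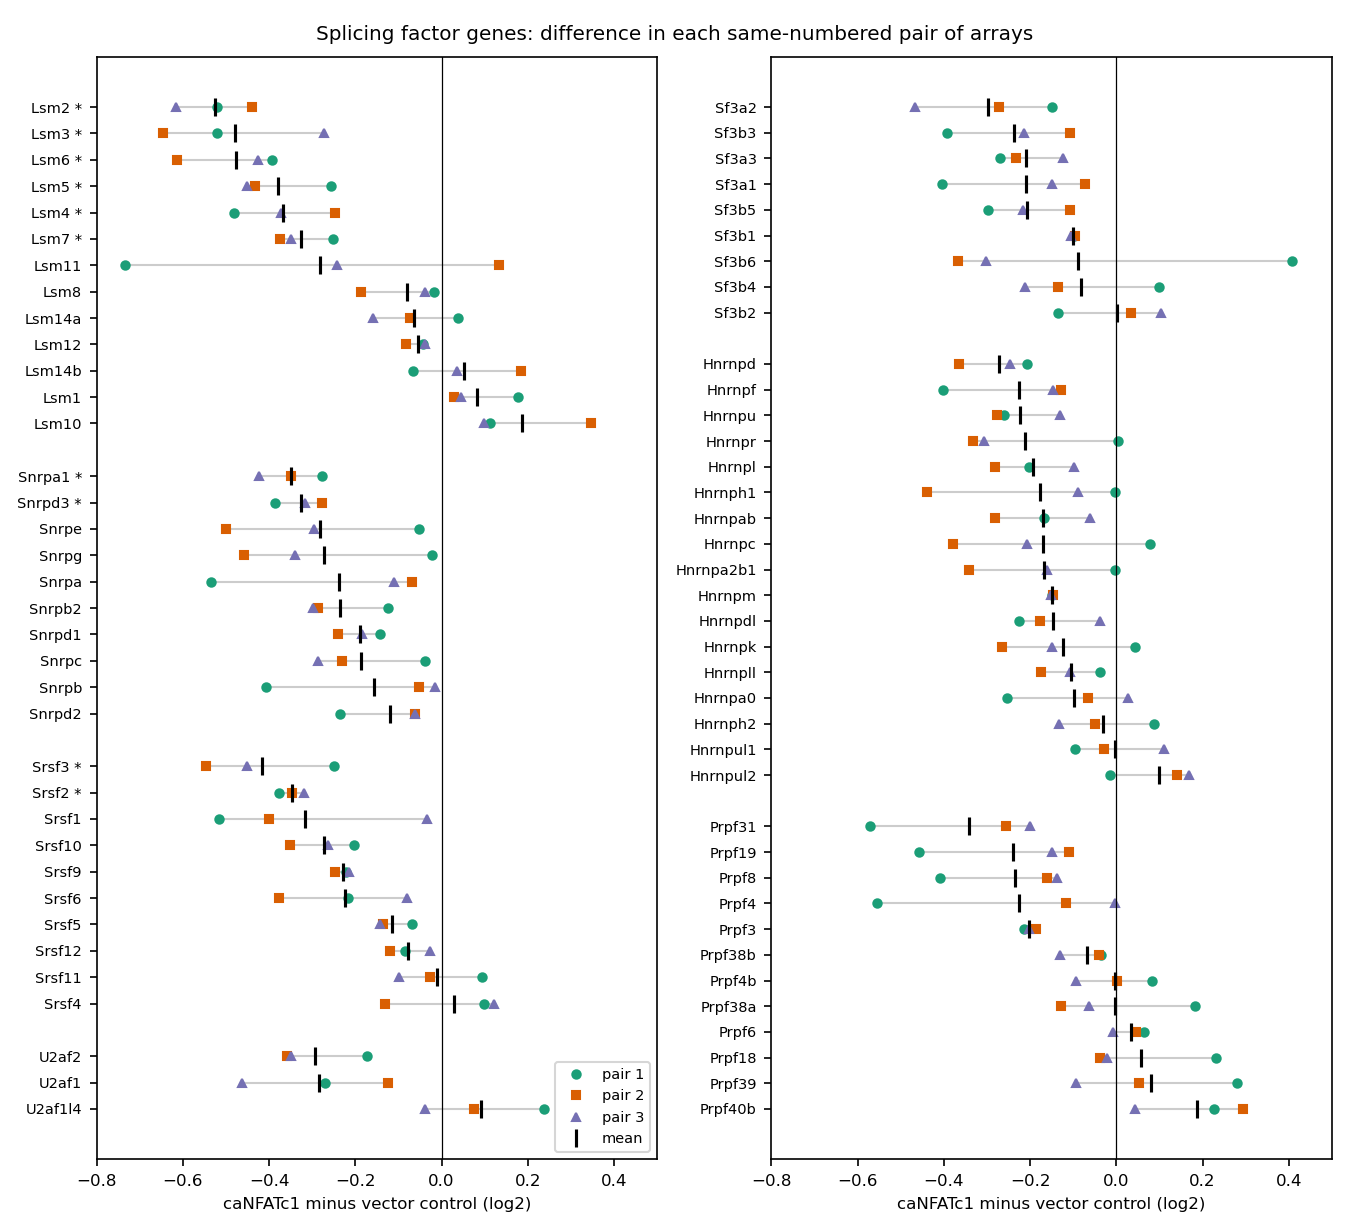
Difference between caNFATc1 and vector control (log2, x axis) for each of the 74 genes (y axis, grouped by family) in pairs 1, 2 and 3, with the mean of the 3 as a bar and an asterisk at the 10 genes called with the replicate block. Most points lie left of 0; Lsm2 to Lsm7 have the lowest means of the LSm family, and the Prpf family lies on both sides.

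**Figure D2:**
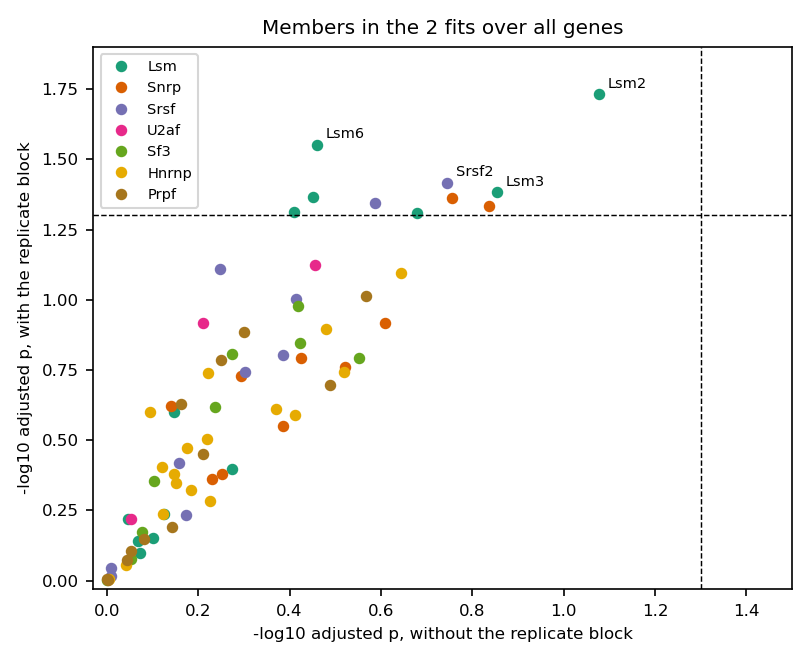
The -log10 adjusted p of each of the 74 members in the limma fit without (x axis) and with (y axis) the replicate block, coloured by family, with dashed lines at 0.05. The 10 called genes lie above the horizontal line and no gene lies right of the vertical one.

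LSm2 to LSm7 are the subunits shared by the nuclear ring on U6 RNA, which LSm8 completes, and the cytoplasmic ring that binds mRNAs due for decay, which LSm1 completes. All 6 shared subunits were called lower, beside 2.38% of all genes. Their median was -0.43 (-0.44, -0.44 and -0.40 in the 3 pairs). These 6 were set apart from the family after the values were seen, so their count is a description. LSm1 and LSm8, the subunits that tell the rings apart, were not called.

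Lsm2 read 0.16, 0.28 and 0.38 on the vector control arrays 1, 2 and 3 and -0.36, -0.16 and -0.24 on the caNFATc1 arrays. The groups did not overlap, and the difference was -0.53 ± 0.07 (SE, n = 3 pairs, limma adjusted p = 0.0186). Lsm3 read 0.11, 0.33 and 0.17 in vector control and -0.41, -0.32 and -0.11 in caNFATc1 cells. It fell by 0.48 ± 0.09 (adjusted p = 0.0415, and 0.140 without the block), again with no overlap. Lsm6 read 0.39, 0.00 and 0.23 against 0.00, -0.61 and -0.20. Its groups touched near 0, since vector control array 2 and caNFATc1 array 1 were the middle values, but within pairs it was lower by 0.39, 0.61 and 0.43, a difference of -0.48 ± 0.07 (adjusted p = 0.0280, and 0.347 without the block).

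Lsm5 was the ring subunit whose groups overlapped. It read -0.02, 0.43 and 0.39 in vector control and -0.27, 0.00 and -0.06 in caNFATc1 cells, and replicate 1 was the lowest array within each group. The difference was -0.38 ± 0.07 (adjusted p = 0.0432, and 0.353 without the block). Lsm4 read 0.47, 0.07 and 0.01 against -0.01, -0.18 and -0.36, and the highest vector control array was replicate 1. It fell by 0.37 ± 0.07 (adjusted p = 0.0486, and 0.390 without). Lsm7 read 0.21, 0.17 and 0.05 against -0.05, -0.20 and -0.30, a difference of -0.33 ± 0.07 (adjusted p = 0.0493, and 0.209 without). Lsm4 and Lsm7 lay just inside the threshold of 0.05, and the member just outside it was U2af2 (adjusted p = 0.0754).

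The other 7 LSm genes were not called. Lsm1 read 0.03, -0.05 and -0.02 in vector control and 0.21, -0.02 and 0.02 in caNFATc1 cells, a difference of 0.08 ± 0.07 (adjusted p = 0.581). Lsm8 read 0.33, 0.06 and -0.06 against 0.31, -0.13 and -0.10, a difference of -0.08 ± 0.07 (0.604). For both genes the replicate 1 arrays of the 2 groups were the highest, and the groups overlapped. Whether Lsm1 and Lsm8 differ from the shared subunits was not tested. Lsm10 and Lsm11 join Sm proteins in the ring of the U7 particle, which trims histone mRNAs, and differed by 0.19 ± 0.08 and -0.28 ± 0.16. Lsm11 ran from -0.73 in pair 1 to 0.13 in pair 2. Lsm12, Lsm14a and Lsm14b, of which the Lsm14 proteins act on mRNAs in the cytoplasm, lay between -0.06 and 0.05.

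**Figure D3:**
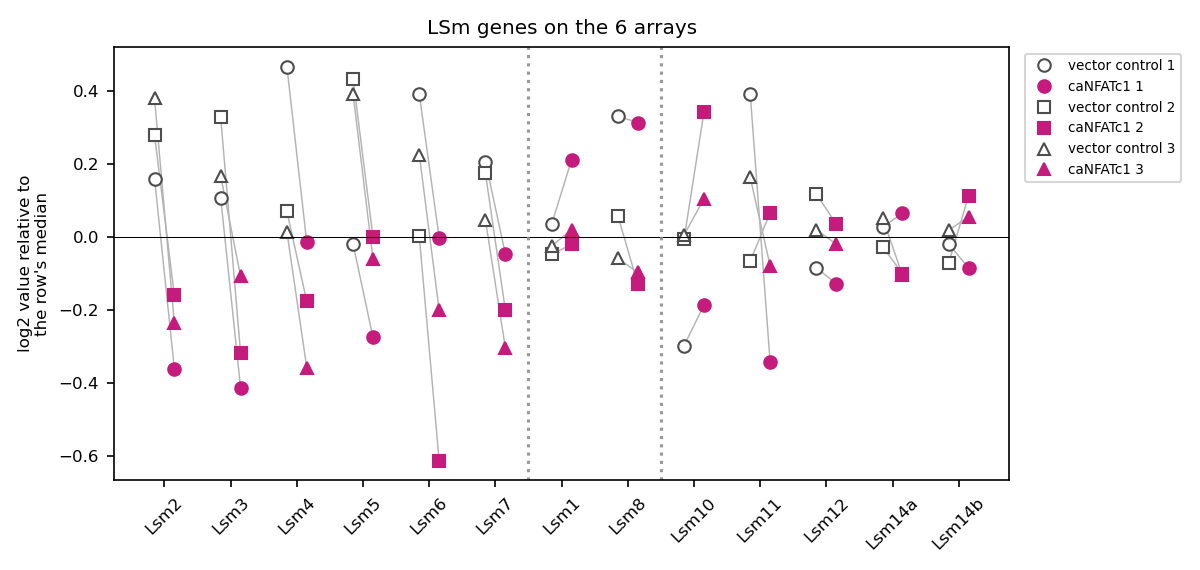
Log2 values relative to the row's median (y axis) of the 13 LSm genes on each array, with vector control as open grey and caNFATc1 as filled symbols, marker shape for replicate and lines joining pairs. Every line of Lsm2 to Lsm7 falls; all 3 lines of Lsm1 and of Lsm10 rise, and those of Lsm8 fall by 0.02 to 0.19.

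Promoter windows of 300 bases (250 before and 50 after the start site; RefSeq, GRCm38.p6) were held for 63 of the 74 members, in 83 windows. They were searched on both strands for GGAAA, the core that NFAT proteins bind, for CCGGAAG, a site of ETS factors, for TTTCCCGC and TTTGGCGC, sites of E2F factors, and for CCAAT. TTTCCCGC also holds the NFAT core on the opposite strand. Of the member windows 57.8% held GGAAA, beside 61.3% of all 32851 windows, and of the 11 windows of called genes 7 did. CCGGAAG was in 30.1% of member windows and 8.86% of all, and in 1 of the 11. The E2F sites were in 7.23% and 1.56% of windows and in 0 of the 11, and CCAAT was in 47.0% and 37.4% and in 6 of the 11. Member windows were richer in G and C (median 61.0%, against 52.7% over all windows). A match is a description of these letters and shows no binding.

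Promoters of 4 members are printed as examples, picked after the matches were seen: Lsm2, the ring gene with the largest difference, whose window has neither the NFAT core nor the ETS site; Lsm5 and Snrpd3, which were called and have both or 3 NFAT cores; and Lsm8, which was not called and has 2 cores. Capitals mark GGAAA or CCGGAAG on either strand. The windows are chr17:34981604-34981903 (plus strand) for Lsm2, chr6:56704650-56704949 (minus strand) for Lsm5, chr10:75517792-75518091 (plus strand) for Snrpd3 and chr6:18848385-18848684 (plus strand) for Lsm8.
Lsm2: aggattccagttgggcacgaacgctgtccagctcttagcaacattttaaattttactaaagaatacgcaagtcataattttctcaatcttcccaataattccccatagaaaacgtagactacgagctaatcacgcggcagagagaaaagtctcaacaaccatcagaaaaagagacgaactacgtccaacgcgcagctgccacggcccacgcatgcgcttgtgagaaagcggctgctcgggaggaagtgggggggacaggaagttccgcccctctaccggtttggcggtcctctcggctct
Lsm5: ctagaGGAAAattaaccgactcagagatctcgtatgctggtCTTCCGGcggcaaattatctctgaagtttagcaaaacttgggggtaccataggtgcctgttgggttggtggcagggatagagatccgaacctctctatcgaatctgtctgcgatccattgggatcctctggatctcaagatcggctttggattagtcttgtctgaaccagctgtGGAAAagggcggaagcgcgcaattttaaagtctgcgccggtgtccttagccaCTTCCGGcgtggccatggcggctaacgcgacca
Snrpd3: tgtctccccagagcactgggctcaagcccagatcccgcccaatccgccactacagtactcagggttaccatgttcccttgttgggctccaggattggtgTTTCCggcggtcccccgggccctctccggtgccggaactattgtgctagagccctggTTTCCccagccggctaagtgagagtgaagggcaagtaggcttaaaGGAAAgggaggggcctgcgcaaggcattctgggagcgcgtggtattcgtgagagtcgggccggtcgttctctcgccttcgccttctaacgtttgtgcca
Lsm8: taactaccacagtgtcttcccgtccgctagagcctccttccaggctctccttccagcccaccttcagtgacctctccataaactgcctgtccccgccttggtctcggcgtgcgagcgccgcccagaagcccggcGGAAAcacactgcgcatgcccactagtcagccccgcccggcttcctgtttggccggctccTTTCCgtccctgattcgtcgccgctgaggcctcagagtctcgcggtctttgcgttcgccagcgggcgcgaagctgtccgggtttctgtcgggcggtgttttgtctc

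After rows were averaged, all 10 Snrp genes were lower in each of the 3 pairs, beside 21.3% of all genes. Their median was -0.24 (-0.19, -0.26 and -0.29). In pair 1 a row of Snrpc differed by 0.21 and a row of Snrpg by 0.08, against negative values in their other rows. Snrpd3, a subunit of the Sm ring, read 0.19, 0.07 and 0.24 on the vector control arrays and -0.20, -0.20 and -0.07 on the caNFATc1 arrays. It fell by 0.33 ± 0.06 (SE, n = 3 pairs, adjusted p = 0.0465, and 0.146 without the block), with no overlap. Snrpa1, a U2-specific protein, read 0.08, 0.19 and 0.35 against -0.20, -0.16 and -0.08, and fell by 0.35 ± 0.07 (adjusted p = 0.0434, and 0.175 without the block). Its groups did not overlap either. The other U2-specific gene, Snrpb2, differed by -0.24 ± 0.07 and was not called (0.121).

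None of the remaining Sm ring genes was called, and most had unequal pairs. Snrpe and Snrpg differed by -0.28 ± 0.10 and -0.27 ± 0.10, with -0.05 and -0.02 in pair 1 and -0.50 and -0.46 in pair 2. Snrpb and Snrpd2 had their largest difference in pair 1 (-0.41 and -0.23) and averaged -0.16 ± 0.10 and -0.12 ± 0.07. Snrpd1 differed by -0.19 ± 0.06 (adjusted p = 0.161), with -0.14, -0.24 and -0.18 in the pairs. The U1-specific genes Snrpa and Snrpc, of which the Snrpc protein helps the U1 particle read the 5′ splice site, differed by -0.24 ± 0.11 and -0.19 ± 0.08.

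Of the 10 Srsf genes 9 had a negative difference, with a family median of -0.23 (-0.21, -0.30 and -0.12). Called lower were 2, beside 2.38% of all genes. SR proteins bind exonic enhancers and recruit the splicing machinery. Srsf2 read 0.08, 0.27 and 0.18 on the vector control arrays and -0.30, -0.08 and -0.14 on the caNFATc1 arrays. It fell by 0.35 ± 0.06 (adjusted p = 0.0383, and 0.180 without the block), its groups did not overlap, and the pairs were close (-0.38, -0.35 and -0.32). Srsf3, the smallest SR protein, read 0.23, 0.06 and 0.14 against -0.02, -0.48 and -0.32. It fell by 0.42 ± 0.08 (adjusted p = 0.0451, and 0.258 without the block), and its pairs ranged from -0.25 to -0.55.

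Srsf1, the SR protein long studied as a driver of 5′ splice site choice, differed by -0.32 ± 0.11 and was not called (adjusted p = 0.157). Its pairs ran from -0.52 in pair 1 to -0.03 in pair 3, although its groups did not overlap. Srsf10, Srsf9 and Srsf6 differed by -0.27 ± 0.07, -0.23 ± 0.06 and -0.22 ± 0.08 (0.0775, 0.0997 and 0.180) and were lower in every pair. Srsf5 and Srsf12 differed by -0.12 and -0.08. Srsf11 and Srsf4 lay nearest to 0, at -0.01 ± 0.07 and 0.03 ± 0.08.

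None of the genes for factors that recognise the 3′ end of introns was called. U2af1 and U2af2, the small and large U2AF subunits, which bind the 3′ splice site AG and the polypyrimidine tract, differed by -0.29 ± 0.08 and -0.29 ± 0.07 (adjusted p = 0.121 and 0.0754). U2af2 read 0.00, 0.29 and 0.35 in vector control and -0.18, -0.06 and 0.00 in caNFATc1 cells. Vector control array 1 lay among the caNFATc1 arrays, and each pair was lower. The paralog U2af1l4 differed by 0.09 ± 0.08. Of the 9 Sf3 genes 8 were negative and none was called, with a median of -0.21 (-0.15, -0.11 and -0.21). Within it the SF3a subunits Sf3a1, Sf3a2 and Sf3a3 lay at -0.21, -0.30 and -0.21 (adjusted p = 0.241, 0.105 and 0.143). Of the SF3b subunits, Sf3b3 and Sf3b5 differed by -0.24 and -0.21. Sf3b1, which holds the branch point adenosine, differed by -0.10 ± 0.06 (0.443), with -0.10, -0.10 and -0.11 in the pairs. Sf3b4, Sf3b6 and Sf3b2 lay at -0.08, -0.09 and 0.00, and Sf3b6 was positive in pair 1 (0.41) and negative in pairs 2 and 3 (-0.37 and -0.30).

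The Hnrnp genes showed small negative differences and no call. Of 17 genes 16 were negative, and 10 were lower in all 3 pairs, beside 21.3% of all genes. The median was -0.17 (-0.10, -0.27 and -0.13). Hnrnpd, whose protein AUF1 binds AU-rich elements of mRNAs, read 0.04, 0.24 and 0.21 in vector control and -0.17, -0.12 and -0.04 in caNFATc1 cells. The groups did not overlap, and the difference was -0.27 ± 0.07 (adjusted p = 0.0803). Hnrnpu, a nuclear scaffold protein, differed by -0.22 ± 0.07 (0.127), and the RNA-binding proteins Hnrnpa2b1 and Hnrnpk by -0.17 ± 0.08 and -0.12 ± 0.08 (0.337 and 0.476). Hnrnpf, Hnrnpr, Hnrnpl, Hnrnph1, Hnrnpab, Hnrnpc, Hnrnpm, Hnrnpdl, Hnrnpll and Hnrnpa0 lay between -0.23 and -0.10. Hnrnph2 and Hnrnpul1 lay at -0.03 and 0.00. Hnrnpul2 was the positive one, at 0.10 ± 0.07.

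The Prpf genes lay on both sides of 0. Of 12, 8 were negative and 4 positive, none was called, and the median was -0.04 (0.01, -0.07 and -0.09). It was -0.073 without replicate 1, -0.0050 without replicate 3 and -0.070 with quantile normalization. Among the 8 with a negative difference were Prpf31, Prpf8, Prpf4 and Prpf3, which encode proteins of the U4/U6.U5 particle. Prpf31 read 0.11, 0.13 and 0.10 in vector control and -0.47, -0.12 and -0.10 in caNFATc1 cells, and differed by -0.34 ± 0.09 (adjusted p = 0.0973) with no overlap. Prpf8, the large protein at the catalytic centre, differed by -0.24 ± 0.08 (0.164), Prpf4 by -0.23 ± 0.12 and Prpf3 by -0.20 ± 0.06 (0.131). The pair 1 differences of Prpf31, Prpf8 and Prpf4 (-0.57, -0.41 and -0.56) exceeded those of pairs 2 and 3, while Prpf3 had -0.21, -0.19 and -0.20. Prpf19, the ubiquitin ligase of the complex that activates the spliceosome, differed by -0.24 ± 0.09. Prpf6, Prpf38a, Prpf38b, Prpf4b and Prpf18 lay between -0.07 and 0.06. Prpf39 and Prpf40b, related to U1-associated proteins of yeast, differed by 0.08 ± 0.09 and 0.19 ± 0.08 (0.235).

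Set side by side, the Prpf median was the highest of the 7 families in each of the 3 pairs, at 0.01, -0.07 and -0.09, but in pairs 2 and 3 the next family was close (Sf3 at -0.11 and Srsf at -0.12). A group of 6 Prpf genes (Prpf3, Prpf4, Prpf6, Prpf8 and Prpf31 of the U4/U6.U5 particle, and Prpf38a) had a median of -0.21. The U2af, Lsm, Snrp, Srsf, Sf3 and Hnrnp medians were -0.29, -0.28, -0.24, -0.23, -0.21 and -0.17, and their order changed from pair to pair. Lsm was lowest in pair 1, Srsf in pair 2 and U2af in pair 3. The LSm median fell on Lsm11, between the shared ring subunits and the rest of that family, and without replicate 1 it was -0.12. The families were not tested against each other.

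**Figure D4:**
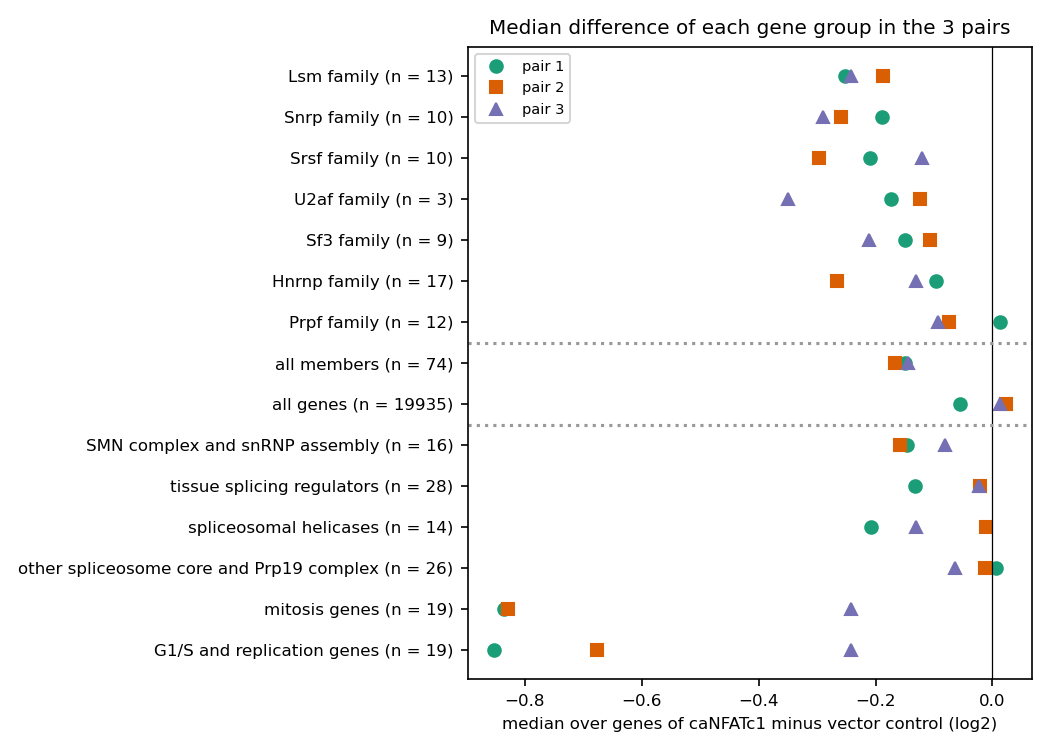
Median over genes of the difference (log2, x axis) in pairs 1, 2 and 3 for the 7 families, all members, all genes and 6 lists of other genes (y axis, with the number of genes). Medians of all members lie between -0.17 and -0.15 in the 3 pairs, and those of all genes at -0.06, 0.02 and 0.01. Medians of mitosis genes lie at -0.84, -0.83 and -0.24.

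Other genes of the splicing pathway were read from lists written with earlier results of these data known. Genes of Sm ring assembly (the SMN complex and the enzyme that methylates Sm proteins) were lower in 12 of 16 cases, with a median of -0.14. Beside 2.38% of all genes called lower and 3.73% higher, 3 were called lower and 0 higher here. These were Gemin6, a subunit of the SMN complex (-0.41 ± 0.06, adjusted p = 0.0276), and the Sm methylating enzyme Prmt5 with its partner Wdr77 (-0.42 ± 0.08 and -0.44 ± 0.08, 0.0455 and 0.0368). None of the 3 passed without the block (0.173, 0.329 and 0.126). Among 26 proteins of the spliceosome core and Prp19 complex 13 were negative and 13 positive, and 1 was called lower, beside 2.38% of all genes. It was Ppil1, a prolyl isomerase of the active spliceosome, which fell by 0.51 ± 0.08 (0.0320, and 0.121 without the block). Among 28 tissue splicing regulators 22 were negative, with a median of -0.10, and 1 was called lower, beside the same 2.38%. It was Rbm38, which fell by 0.47 ± 0.08 (0.0311, and 0.381 without).

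Of 15 SR protein kinases and SR-like factors 0 were called lower and 1 higher, beside 2.38% and 3.73% of all genes. It was Clk3, which phosphorylates SR proteins and rose by 0.35 ± 0.06 (limma adjusted p = 0.0385, and 0.238 without the block). This list includes the member Prpf4b, had 7 negative and 8 positive genes, and its median was 0.02. Spliceosomal helicases (14 genes, median -0.10), partners of the branch point (12, median -0.17), the exon junction complex (7, median -0.08) and proteins with Snrnp symbols (6, median -0.08) had 0 calls in limma with the block and 0 without. At an unadjusted p under 0.05, 5, 6, 1 and 0 of them were lower and 0 higher with the block, and 5, 4, 1 and 0 passed in either direction without it. Dhx15 belongs to both the helicases and the branch point partners and is counted in both. Of all genes 9.78% were lower and 11.7% higher at that p with the block, and 12.7% passed without it. Snrnp70, the U1 protein, and Snrnp200, a helicase of the U5 particle, differed by -0.14 ± 0.08 and -0.20 ± 0.09.

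Genes of cell division moved in the same direction. All 19 mitosis genes measured and all 19 genes of the G1/S transition and DNA replication had a negative difference. Their medians were -0.63 and -0.60. With the block 8 of each were called lower, beside 2.38% of all genes. Without it 0 were called, beside 0.216% of all genes. At an unadjusted p under 0.05 without the block there were 18 and 14, beside 12.7% of all genes. Their pairs were unequal, at -0.84, -0.83 and -0.24 for mitosis and -0.85, -0.68 and -0.24 for replication. In the same pairs all members had -0.15, -0.17 and -0.15, and the shared LSm ring genes -0.44, -0.44 and -0.40. The Srsf family had -0.21, -0.30 and -0.12, and the Hnrnp family -0.10, -0.27 and -0.13. The part of cell division in the lower splicing factor values was not tested. In bulk samples, fewer cells with a transcript and less of it per cell cannot be told apart.

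Markers of other cells that a keratinocyte culture can hold were also read. Of 11 fibroblast markers 7 were positive, with medians of -0.14, 0.01 and 0.47 in the pairs, and Col3a1 rose by 1.20 ± 0.19 (adjusted p = 0.0296, and 0.108 without the block). Melanocyte (8), immune (9) and endothelial (6) markers had medians of -0.07, -0.03 and -0.02. They had 0 calls, beside 2.38% of all genes called lower and 3.73% higher. At an unadjusted p under 0.05 in limma with the block 0 of them passed, beside 9.78% of all genes lower and 11.7% higher. Of 10 basal keratinocyte markers 5 were positive and 5 negative, with a median of 0.01 and a spread from -0.58 to 0.42. At an unadjusted p under 0.05 in limma with the block, 1 was lower and 1 higher, near those shares of all genes (9.78% and 11.7%). Trp63, the master regulator of basal cells, was the one called and rose by 0.42 ± 0.08 (0.0444, and 0.322 without). The part of these markers in the lower splicing factor values was not tested.

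Within a group, the spread between cultures was about as large as the difference between groups. The range over the 3 vector control arrays had a median of 0.21 over the members (0.20 over all genes), and for 45 of the 74 members it was larger than the group difference, beside 77.3% of all genes. In 12 members both replicate 1 arrays lay below the other 4 arrays (16.2%, beside 12.4% of all genes), and in 11 they lay above (14.9%, beside 12.0%). Srsf4 was lower in replicate 1 by at least 0.40 and Hnrnpr by at least 0.37. Prpf4b was higher there by at least 0.41 and Lsm8 by at least 0.26. Of the called genes, none belonged to these 23.

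Members with several rows gave the same direction in each row once the 3 pairs were averaged. There were 14 such genes, and in all 14 every row had a negative difference. The 3 rows of Lsm6 lay between -0.51 and -0.45, the 2 of Lsm7 at -0.33 and -0.32, and the 3 of Lsm5 between -0.48 and -0.26. Srsf3 was less even, with -0.35, -0.57 and -0.32. The 4 rows of Hnrnpf lay between -0.23 and -0.22, and the 5 rows of Snrpd2 between -0.16 and -0.04. Within pair 1 some rows disagreed in direction. There the rows of Sf3b4 lay at -0.15 and 0.35, those of Snrpg at 0.08 and -0.12, and those of Snrpc at -0.14, -0.18 and 0.21. Rows of a gene read the same RNA of the same cultures, so they are not separate evidence.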

How the data were processed

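Total RNA of 6 keratinocyte cultures was labelled as biotinylated cDNA and read on single-colour arrays. The log2 values come as a single table of 28815 rows, as deposited. Per the submitters' processing notes, RMA and mm8 were used; software versions and row filters are not stated there. Every row's median over the arrays was 0 within 1e-06, so brightness is lost and no filter on dim rows could be run. The log base was taken as 2, as RMA gives. Array number limits the precision. With the replicate block, p-values measure the spread of the differences within pairs. Without it they measure the spread between the cultures of a group.

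Rows were named through the platform annotation (21780 with 1 symbol, 1605 with several, 5430 not listed), and Entrez numbers matched to GRCm38.p6 changed 0 symbols (91 not found). A gene's rows were averaged. limma 3.58.1 (R 4.3.3; lmFit, eBayes, 2-sided) was fitted over 19935 genes with group and the replicate number as a block, since the set's rule pairs arrays by number, and was tested on simulated data. Whether equal numbers mark a shared culture or day is not labelled. After subtracting group means, arrays with equal numbers correlated over genes at 0.71, 0.61 and 0.57, against -0.60 to 0.18 for other pairings. The fit without the block and other settings are alternatives. Named genes were, per family, those called, the 2 lowest p where fewer than 2 were called, the smallest difference and 12 measured genes of a fixed list of 13, and from the other lists up to 3 with the lowest p; others were named to account for every member. The role groups within families, the motifs and the printed promoters were chosen after values were seen. The members and lists were chosen with earlier results of these data known.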

Additional observations from a re-analysis of the deposited data

How the results depend on the processing

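The count of 10 members called lower was the result that moved most. It was 0 without the replicate block, 3 with quantile normalization between arrays (Lsm2, Lsm4 and Snrpd3), and 5 of 60 members when only genes with a single row were fitted, a setting that leaves out 14 members. It ran from 1 to 4 when the replicates were left out in turn, with 2 pairs remaining. It was 7 with median-centred arrays, 8 with a robust prior, 9 with the row of largest mean and 15 at an adjusted p under 0.1. Without the block 0.216% of all genes were called. For the other settings the share of all genes was not computed, so these counts cannot be set beside it. In each setting the count of members called higher was 0. Where a setting lost a call the cause was not tested, other than the fewer arrays or genes named here. With the block, leaving out 1 array leaves out its pair.

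The median of all members was -0.19, and -0.20 with quantile normalization, -0.17 with single-row genes, and between -0.20 and -0.15 without single replicates. The LSm median of -0.28 was -0.073 with single-row genes, which drop Lsm5, Lsm6 and Lsm7, and between -0.30 and -0.12 without single replicates. The U2af median of -0.29 was -0.10 with single-row genes, which leave 2. No family median and no named gene that was called changed direction in any setting run. The planned filter on dim rows was not run, because row-centred values hold no brightness.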
